A study of Rattus norvegicus with 2 samples.

Results

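Serpins are a family of protease inhibitors, and the gene list of these libraries holds 40 genes whose symbol starts with Serpin, of 25399 genes in all. Every such gene is a member, 39 of them are described, and the letter after Serpin names its clade. Cardiac cells of neonatal Sprague-Dawley rats aged 1 to 3 days, pooled from males and females and enriched on Percoll, were cultured and given either saline (control) or 1 µg/mL LPS for 2 h. Each condition gave 1 single-cell library of the 10X Genomics 3′ kind, which leaves no replicates, and nothing was tested. The control library held 11531 cells and 152624585 UMIs (unique molecular identifiers, each standing for 1 captured RNA molecule), and the LPS library held 12689 cells and 127580475 UMIs. Intervals in brackets cover counting error only, at a level of 95%. Condition and library cannot be told apart.

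A serpin presents a reactive loop as bait, and a serine protease that cuts the loop is trapped and inactivated in a covalent complex. Some members do other work: *Serpinh1* encodes HSP47, a collagen chaperone, and *Serpinf1* encodes PEDF, a secreted anti-angiogenic factor. In the heart and its vessels members of the family restrain clotting, the dissolution of fibrin and complement.

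The classes are the 11 clusters of the authors' cell table, numbered 0 to 10. Clusters 0, 1 and 7 are named Fibroblast there, cluster 3 ICA and Cardiomyocyte, clusters 4 and 5 Endothelial, and cluster 6 Macrophages. Cycling genes led cluster 1, interferon-response genes such as *Mx1* led cluster 7, and *Selp* and *Plvap* led cluster 5. Clusters 2, 8, 9 and 10 carry no type. *Rgs5* and *Kcnj8* led cluster 2, *Bnc1* led cluster 8, mitochondrial genes led cluster 9, and *Sox2* and *Sox10* led cluster 10. The sample labels call all cells intrinsic cardiac adrenergic (ICA) cells, yet the ICA markers *Dbh*, *Th* and *Ddc* summed to 75.0 and 81.7 CPM in cluster 3 and to under 9 CPM in every other cluster. In cluster 3, 1 of these 3 markers was at 0 in each library. CPM are UMIs of a gene per 1000000 UMIs of the cluster. Cluster 0 was the largest, with 6600 control and 7030 LPS cells, and cluster 10 the smallest, with 16 and 26. A median cell held 12479 UMIs in control and 9432 in LPS. The libraries share 194 cell barcodes, and 10 cells without a cluster were left out.

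Of the 39 described genes, 15 had no UMI in either library. Clade A, the clade of plasma serpins and hormone carriers, gave *Serpina10*, *Serpina1f*, *Serpina3c*, *Serpina3m*, *Serpina4*, *Serpina5*, *Serpina6* and *Serpina7*. The others were *Serpinb11*, *Serpinb1b*, *Serpinb3*, *Serpinb3a*, *Serpinb9d*, *Serpine3* and *Serpini2*. Another 13 had between 1 and 31 UMIs over both libraries, 130 in all. They were *Serpina1*, *Serpina11*, *Serpina12*, *Serpina16*, *Serpina9*, *Serpinb10*, *Serpinb12*, *Serpinb13*, *Serpinb5*, *Serpinb7*, *Serpinb8*, *Serpind1* and *Serpinf2*, and no ratio was taken for them. The remaining 11 had at least 50 UMIs and are given with their values below. None of the 13 clade A genes was among them, against 5 of the 16 clade B genes, the clade of intracellular serpins. These genes took 0.149% of all UMIs in control and 0.146% in LPS. *Serpinh1* alone held 73.4% of their UMIs in control and 68.2% in LPS.

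**Figure D1:**
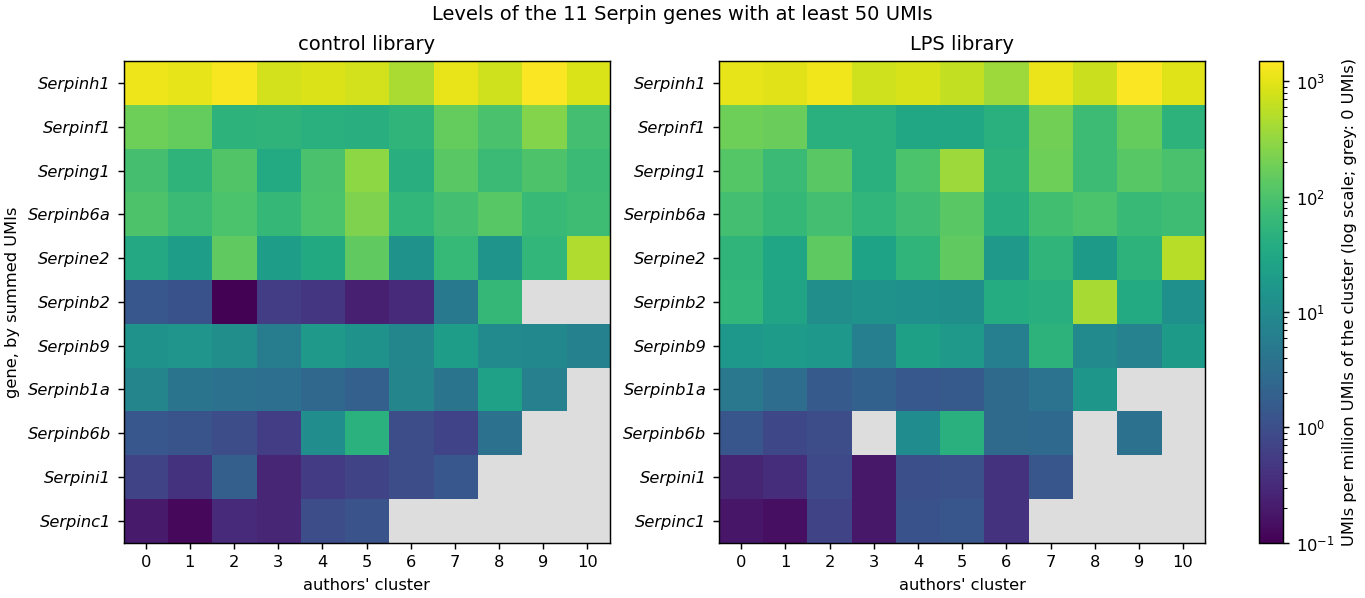
Level of each of 11 Serpin genes with at least 50 UMIs (rows) in each of the authors' clusters (columns), in CPM of the cluster on a log colour scale, for the control and the LPS library; grey means 0 UMIs. *Serpinh1* is high in every column, *Serpine2* is brightest in cluster 10, and the *Serpinb2* row is dark or grey in control except in cluster 8.

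The sequences shown next stand just before an annotated start of *Serpinb2* and of *Serpinb9*, the clade B genes that differed by at least 2-fold in a cluster. They are the 250 bases before that start, given by RefSeq for assembly GRCr8, which may not be the build behind the counts. A window was found for 10 of these 11 genes and not for *Serping1*. Capitals mark a match to GAAANNGAAA (an interferon-stimulated response element) or TGANTCA (an AP-1 site), on either strand.
Serpinb2 (chr13:24055771-24056020, + strand): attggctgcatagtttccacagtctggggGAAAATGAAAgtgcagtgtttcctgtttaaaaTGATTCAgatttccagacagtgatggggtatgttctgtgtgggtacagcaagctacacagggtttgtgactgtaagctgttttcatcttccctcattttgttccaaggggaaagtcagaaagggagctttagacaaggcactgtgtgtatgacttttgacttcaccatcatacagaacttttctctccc
Serpinb9 (chr17:31640817-31641066, - strand): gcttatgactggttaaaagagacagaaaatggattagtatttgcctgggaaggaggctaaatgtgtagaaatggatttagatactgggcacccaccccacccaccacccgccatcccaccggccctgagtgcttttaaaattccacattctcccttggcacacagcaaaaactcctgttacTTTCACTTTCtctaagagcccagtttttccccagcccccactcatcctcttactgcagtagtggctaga

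The interferon element lies 221 to 212 bases before the start of *Serpinb2* and, on the opposite strand, 69 to 60 bases before that of *Serpinb9*. The AP-1 match lies 189 to 183 bases before the start of *Serpinb2*. Of 33469 windows of the same length, 3.41% hold GAAANNGAAA and 6.34% hold TGANTCA, while 1.3% hold GGGNNTTTCC (an NF-κB site), which matched in none of the 11 windows of these genes (*Serpinb6a* has more than a single window). The starts used lie 4088 bases inside the *Serpinb2* gene and 11187 bases inside the *Serpinb9* gene as RefSeq outlines them. Each outline thus begins further upstream, and both windows lie within it. Which start these cells use is not known. The motifs were chosen after the sequences were seen, and a match is a description of letters only.

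**Figure D2:**
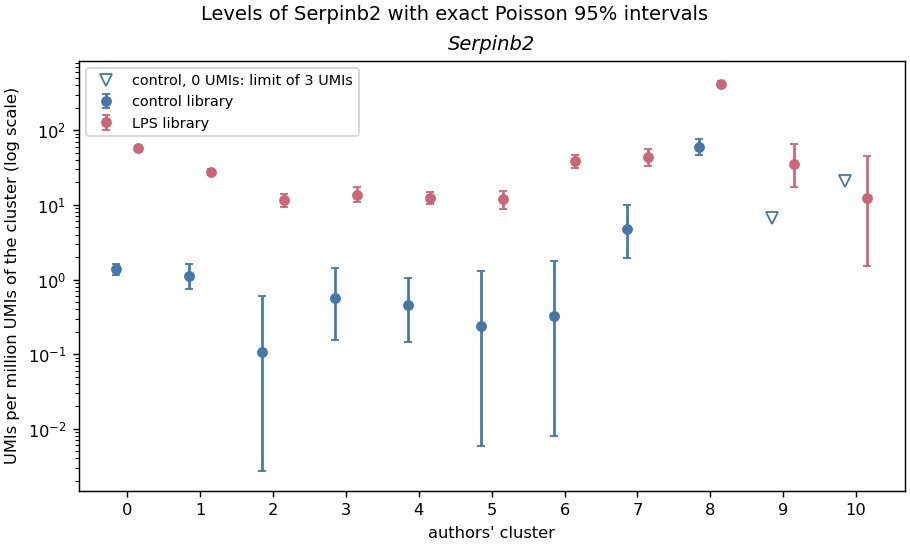
Levels of *Serpinb2* in CPM of the cluster on a log axis, for each of the authors' clusters, in the control (blue) and LPS (red) library; bars are exact Poisson 95% intervals and open triangles the limit of 3 UMIs where none was seen. The LPS level is highest in cluster 8, at 421 CPM, and the control level there, 60.3 CPM, is the highest of the control library.

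*Serpinb2* (ENSRNOG00000002460) encodes PAI-2, a mostly intracellular inhibitor of urokinase known from macrophages and from epithelial cells under stress. It had 237 UMIs in all control cells and 5765 in all LPS cells, and it was higher in LPS in all 9 clusters with at least 50 of its UMIs. That minimum was summed over both libraries, and only clusters 0 and 8 reached it in control, with 124 and 67 UMIs. The other clusters passed it only with their LPS UMIs, so the count of 9 clusters was largely set by the filter. In the fibroblasts of cluster 0 *Serpinb2* had 124 UMIs in control and 4248 in LPS, or 1.37 CPM (1.14 to 1.63) and 57.6 CPM (55.9 to 59.4). The ratio was 42.0 (35.2 to 50.7), number 10 among 12247 genes. Cluster 0 held 73.7% of the *Serpinb2* UMIs of the LPS library.

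The highest level was not in cluster 0 but in cluster 8, the small cluster led by *Bnc1*, whose 7 mesothelial markers (*Msln*, *Krt19* and others) summed to 538 and 633 CPM against at most 37.6 CPM elsewhere, with 1 and 2 of them at 0. There *Serpinb2* had 67 UMIs in control and 442 in LPS, or 60.3 CPM (46.7 to 76.5) and 421 CPM (383 to 462). Cluster 8 was the only cluster counted above 5 CPM in control. Clusters 9 and 10 had 0 UMIs there, and their limits of 3 UMIs, 6.67 and 20.9 CPM, are above 5 CPM. The ratio of cluster 8, 6.98 (5.39 to 9.17), was the lowest of the 9 clusters, but the interval lies inside that of cluster 7 (4.16 to 23.4). The LPS level of cluster 8 was 7.31 times that of cluster 0, the next highest. These levels come from 70 control and 81 LPS cells.

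Macrophages had 1 *Serpinb2* UMI in control and 96 in LPS, or 0.321 CPM (0.00813 to 1.79) and 38.6 CPM (31.3 to 47.2). With a single control UMI the ratio, 120 with an interval of 21.1 to 4800, is poorly fixed. The cycling fibroblasts of cluster 1 had 1.12 and 27.5 CPM, a ratio of 24.5. Cluster 7 had 4.80 and 43.4 CPM, a log2 ratio of 3.18. It was 1.65, on 3 and 13 UMIs, when 3000 UMIs were drawn at random from each cell so that all cells had equal depth (thinning). In clusters 2, 3, 4 and 5 between 1 and 5 control UMIs stood against 54 to 121 LPS UMIs, at LPS levels from 11.5 to 13.7 CPM. Cluster 9 had 0 and 10 UMIs, and cluster 10 had 0 and 2.

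Fluid in a droplet carries RNA released by other cells, so these low levels were set beside those of the fibroblast markers, taken as a percent of cluster 0 in the same library. In LPS the levels of *Serpinb2* in clusters 2, 3, 4 and 5 were 20.1%, 23.8%, 21.6% and 20.6% of that in cluster 0. The 8 fibroblast markers in these clusters ranged from 16.7% to 77.7%, and each *Serpinb2* value lies inside its cluster's own marker range. In macrophages *Serpinb2* was at 67.1% (54.2 to 82.1) of cluster 0, above the highest fibroblast marker there, 35.8%. After thinning, 3 of 290 LPS macrophages held 59.0% of its UMIs there. The macrophage percent thus rests largely on few cells, and its interval does not cover such uneven spread between cells. In cluster 8 it was at 731% (661 to 806), against 56.8% for the highest marker. The part of free RNA in these levels was not tested further.

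*Serpinb2* was unevenly spread over the LPS fibroblasts. After thinning, which left out cells with fewer than 3000 UMIs, cluster 0 had a UMI in 0.364% of control cells and in 9.64% (8.96 to 10.4) of LPS cells, against 1.41% and 20.8% without thinning. Equal levels in all cells would have put a UMI in 15.5% of the LPS cells. Of 7024 cells, 117 (1.67%) had 3 or more UMIs and held 43.1% of all *Serpinb2* UMIs, and the maximum was 14. In cluster 8 the thinned shares were 17.1% (9.18 to 28.0) in control and 53.1% (41.7 to 64.3) in LPS (40.0% and 80.2% unthinned), and 14 of 81 LPS cells held 66.7% of the UMIs. Among macrophages 6.21% of the LPS cells had a UMI, 3 of 290 cells held 59.0% of the UMIs, and the highest cell had 11. Cluster 4, with 2.26% of LPS cells, had the lowest share among clusters of over 100 cells.

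**Figure D3:**
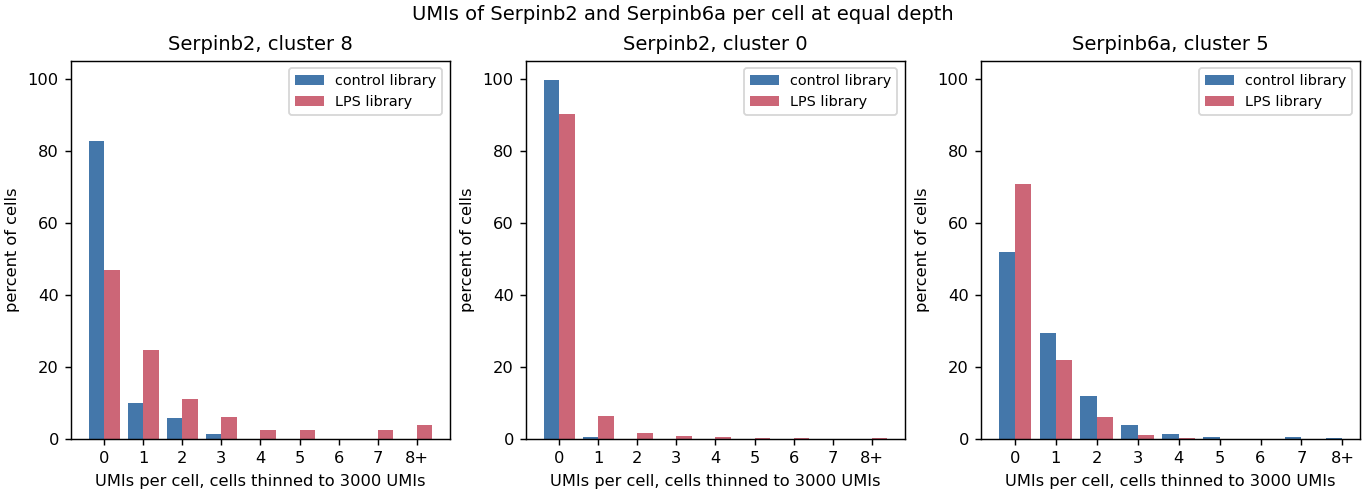
Percent of cells (vertical axis) by the number of UMIs of the gene per cell after thinning to 3000 UMIs (horizontal axis, 8 or more pooled), for *Serpinb2* in clusters 8 and 0 and *Serpinb6a* in cluster 5, control in blue and LPS in red. LPS cells with a *Serpinb2* UMI are 53.1% of cluster 8 and 9.64% of cluster 0, and cells with a *Serpinb6a* UMI are 48.0% of the control and 29.1% of the LPS library's cells in cluster 5.

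Read across all members, the Serpin genes past 2-fold were the same few genes from cluster to cluster. With at most 10 measured members in a cluster, these counts are no result about the family. In cluster 0, 1 of 10 measured members was higher in LPS, where 3.44% of all measured genes were, and 1 was lower, where 9.1% of all genes were. A gene counts as measured with at least 50 UMIs in the cluster over both libraries. In cluster 1, 1 of 8 was higher (3.23% of all genes) and 0 lower (5.09%). In cluster 2, 1 of 7 was higher (2.86%) and 0 lower (4.28%), and in cluster 3, 1 of 7 was higher (1.7%) and 0 lower (1.69%).

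In the endothelial clusters 1 of 8 was higher in cluster 4 (2.65%) and 1 of 8 in cluster 5 (4.24%), with 0 lower in either (4.08% and 4.56%). In macrophages 1 of 6 was higher (4.82%) and 0 lower (12.3%). In cluster 7, 2 of 7 were higher (4.7%) and 0 lower (3.45%), and in cluster 8, 1 of 5 was higher (2.48%) and 0 lower (1.67%). In cluster 9, 0 of 3 were higher (2.69%) or lower (2.81%), and in cluster 10, 0 of 2 were higher (3.52%) or lower (0.971%). The higher gene was *Serpinb2* in clusters 0 to 8, joined by *Serpinb9* in cluster 7. The lower gene in cluster 0 was *Serpini1*.

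*Serpinb9* (ENSRNOG00000033772) encodes an intracellular inhibitor of granzyme B that guards cells against cytotoxic granules. In cluster 7, the fibroblasts led by interferon-response genes, it had 32 UMIs in control and 76 in LPS, or 21.9 CPM (15.0 to 30.9) and 49.996 CPM (39.4 to 62.6). The ratio was 2.28 (1.49 to 3.56), and 24.0% of control and 33.3% of LPS cells had a UMI. After thinning only 4 and 19 UMIs were left, in 3.85% and 11.8% of the cells, and the log2 ratio was 1.78 in place of 1.19. Thinning to 1500 UMIs put the shares in the other order, 8.65% and 5.56%. At equal depth the difference thus rests on few UMIs, and the order of the shares changed with the depth drawn. Cluster 7 had the highest level in both libraries. The 4 interferon-response markers summed to 730 CPM in control and 2362 CPM in LPS in cluster 7, and whether the gene follows them was not tested.

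In the other 6 measured clusters the *Serpinb9* ratio ran from 1.13 to 1.46. Its interval lay above 1 in 4 of them, clusters 0, 1, 2 and 4. Cluster 0 had 13.9 and 17.0 CPM, a ratio of 1.23 (1.13 to 1.33). Macrophages had 26 UMIs in control and 16 in LPS.

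*Serpinb6a* (ENSRNOG00000017962), an intracellular inhibitor of trypsin-like proteases and cathepsin G, had its highest level in cluster 5. It had 236 CPM (222 to 251) there in control and 131 CPM (120 to 141) in LPS, from 1003 and 594 UMIs. The ratio of 0.553 (0.499 to 0.613) was the lowest of its 9 measured clusters, and after thinning 48.0% and 29.1% of the cells had a UMI (82.3% and 62.3% unthinned). Cells with 3 or more thinned UMIs were 23 of 350 in control and 5 of 436 in LPS. The mean at equal depth was 0.80 UMIs per cell in control and 0.376 in LPS, a difference past 2-fold. Its ratios in the other clusters ran from 0.711 in macrophages to 0.953 in cluster 7, and the interval lay below 1 in 6 of the 9. In cluster 5, 6.66% of all measured genes had a ratio as low or lower. That share was 36.0% in cluster 0 and 36.6% in macrophages. Cluster 0 had 102 and 83.7 CPM.

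*Serpinb6b* (ENSRNOG00000016420), a close relative, had its highest levels in the endothelial clusters. It had 47.3 CPM (41.0 to 54.3) in control and 44.8 CPM (38.9 to 51.4) in LPS in cluster 5, and 11.3 and 10.7 CPM in cluster 4. No other cluster was counted above 3.6 CPM, but the limit of 3 UMIs is higher where none was seen in control cluster 9 and in cluster 10. In cluster 0 *Serpinb6b* had 1.34 and 1.30 CPM. The ratios, 0.943 to 0.973, have intervals that include 1, and the interval in cluster 5 runs from 0.776 to 1.16. The clusters were made from these same cells, so its contrast between clusters is a description.

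*Serpinb1a* (ENSRNOG00000016581), an inhibitor of neutrophil elastase, was lower in LPS in cluster 0, with 708 and 348 UMIs. Its level was 7.82 CPM (7.26 to 8.42) in control and 4.72 CPM (4.24 to 5.24) in LPS, a ratio of 0.603 (0.529 to 0.687). In cluster 1 the ratio of 0.775 has an interval that includes 1. Cluster 8 had the highest level, 24.3 and 16.2 CPM, from 27 and 17 UMIs. RefSeq places *Serpinb6a*, *Serpinb9d*, *Serpinb1b*, *Serpinb9*, *Serpinb6b* and *Serpinb1a* on a single chromosome in GRCr8, and reads shared between such near copies are not counted by the software named in the processing notes, so their levels are uncertain.

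*Serpinb2* sits apart from these, on a chromosome with 9 other clade B members and *Serpinc1*. Its nearest members there, *Serpinb7* and *Serpinb10*, had 1 and 16 UMIs in all. *Serpinb12*, on the same chromosome, had 5 UMIs in control and 26 in LPS, of which cluster 5 held 0 and 11.

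*Serpine2* (ENSRNOG00000015461) encodes protease nexin-1, an inhibitor of thrombin and plasminogen activators found on cell surfaces. Cluster 10, led by *Sox2* and *Sox10*, had the highest level, with 473 CPM (367 to 599) in control and 539 CPM (431 to 666) in LPS. After thinning, 4 of its 16 control cells held 78.1% of the *Serpine2* UMIs, and 8 of its 26 LPS cells held 75%. The intervals do not cover such uneven spread between cells. Clusters 2 and 5 followed with 142 CPM each in control and 139 and 146 CPM in LPS, and these differ by less than their intervals. Cluster 0 had 33.7 CPM (32.6 to 35.0) in control and 53.6 CPM (51.9 to 55.3) in LPS, a ratio of 1.59. The interval lay above 1 in cluster 1 (1.33) and cluster 4 (1.53) as well, and it included 1 in the other 6 measured clusters. In cluster 7 the log2 ratio was -0.24, and 0.44 without the 8% of cells with the most UMIs.

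*Serping1* (ENSRNOG00000007457) encodes the C1 inhibitor, which checks the first complement protease complex and the contact system. It was highest in cluster 5, with 294 CPM (278 to 310) in control and 365 CPM (347 to 383) in LPS, a ratio of 1.24 (1.15 to 1.34). Cluster 0 had 88.9 and 119 CPM, a ratio of 1.34 (1.30 to 1.38). The largest ratios, 1.40 each, were those of clusters 1 and 7. The interval lay above 1 in 6 of 10 clusters and below 1 in none, and cluster 4 had 93.7 and 98.5 CPM, with an interval of the ratio from 0.962 to 1.15.

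*Serpinf1* (ENSRNOG00000003172) was at 180 CPM in control and 177 CPM in LPS in cluster 0, a ratio of 0.984 (0.961 to 1.01). The other fibroblast clusters had 153 to 193 CPM, and the unnamed cluster 9 had 251 and 154 CPM. Cluster 9 also had the highest summed fibroblast markers, 17272 CPM in control and 14504 CPM in LPS. Those of cluster 0 summed to 11634 and 10684 CPM. The endothelial clusters had 44.8 and 32.4 CPM (cluster 4) and 43.5 and 31.6 CPM (cluster 5), ratios of 0.723 (0.626 to 0.834) and 0.727 (0.580 to 0.909). These levels are 18.3% and 17.8% of cluster 0 in LPS, inside the range of the fibroblast markers there. In cluster 7 the ratio was 1.26 (1.06 to 1.51).

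*Serpinh1* (ENSRNOG00000016831) was detected in every cluster, from 360 CPM in LPS macrophages to 1411 CPM in the control cells of cluster 9. Cluster 0 had 1174 CPM (1167 to 1181) in control and 1054 CPM (1046 to 1061) in LPS. In macrophages, which make little collagen, the levels were 449 and 360 CPM, and the LPS level was 34.2% of cluster 0, where the fibroblast markers ranged from 22.7% to 35.8%. Cluster 2 had 1341 and 1228 CPM, above cluster 0 in both libraries.

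The ratio of *Serpinh1* ran from 0.786 (0.747 to 0.827) in cluster 5 to 1.06 in cluster 10, and its interval lay below 1 in 7 of 11 clusters. The median gene was itself lower in LPS by 0.13 on the log2 scale in cluster 0, by 0.12 in cluster 2 and by 0.31 in macrophages. Relative to it, the log2 ratios of *Serpinh1* were -0.03 in cluster 0, -0.01 in cluster 2 and -0.01 in macrophages, from -0.16, -0.13 and -0.32. In cluster 5, where the median gene was lower by 0.06, *Serpinh1* had -0.29 on that scale, from -0.35. *Serpinf1* in cluster 0 turned from -0.02 to 0.11 on that scale.

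**Figure D4:**
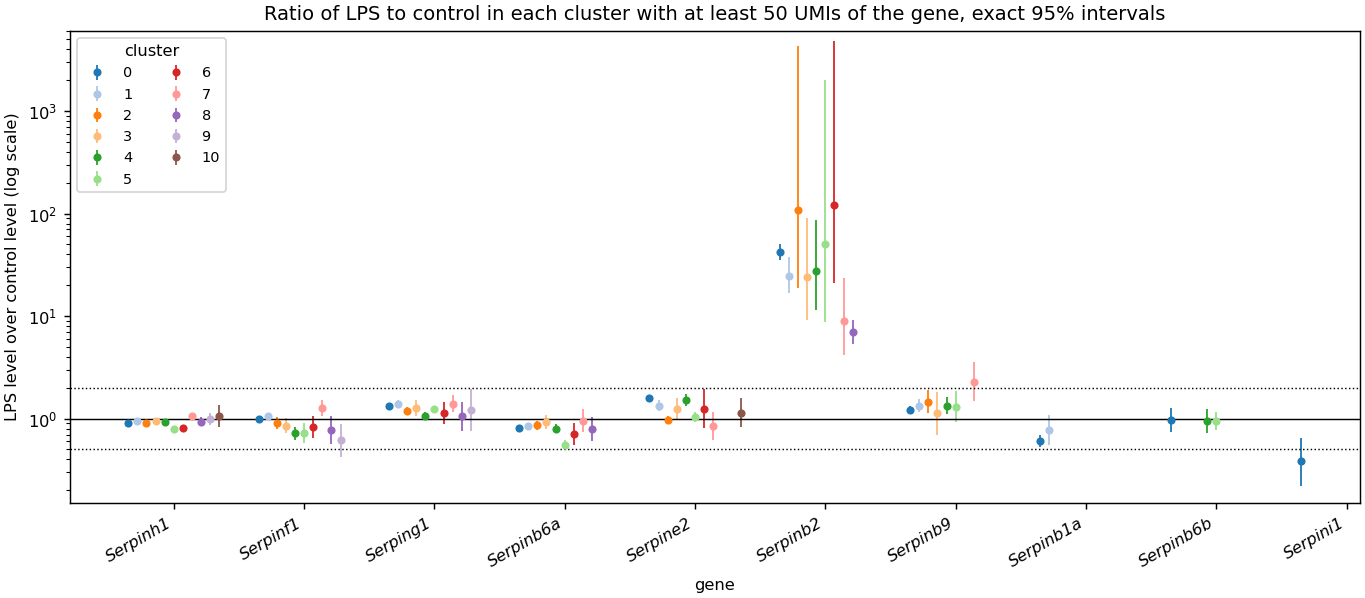
Ratio of the LPS level to the control level on a log axis for each Serpin gene (horizontal axis) in each cluster with at least 50 of its UMIs, coloured by cluster, with exact 95% intervals of counting error; dotted lines mark 2-fold. *Serpinb2* lies above the upper line in all 9 clusters shown, *Serpinb9* crosses it in cluster 7 (2.28), and *Serpini1* in cluster 0 (0.383) lies below the lower line. For *Serpinb2* only clusters 0 and 8 had 50 UMIs in control, and the others are shown because of their LPS UMIs.

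Both remaining genes were rare. *Serpini1* (ENSRNOG00000010248) encodes neuroserpin, an inhibitor of tissue plasminogen activator. It had 64 UMIs in control and 20 in LPS in cluster 0, or 0.707 and 0.271 CPM, a ratio of 0.383 (0.220 to 0.642), and its log2 ratio was -0.79 in place of -1.38 at equal depth, where 13 and 8 UMIs were left. *Serpinc1* (ENSRNOG00000002783) encodes antithrombin, which is made chiefly in the liver. It had 42 and 41 UMIs in all and at most 1.32 CPM in any cluster where a UMI was seen, the highest being cluster 5 on 5 and 6 UMIs. In clusters 7 to 10 none was seen, and the limit of 3 UMIs lies above that level there.

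The proteases and partners of the family were read from 4 lists. Of 12 genes of plasminogen activation and clotting, 7 were measured in cluster 0, and 1 was lower in LPS (9.1% of all genes). It was *Plg*, which encodes plasminogen, with 42 and 11 UMIs. None of the 6 measured in cluster 4 passed 2-fold. In macrophages 2 of 5 were higher, where 4.82% of all measured genes were. *F3*, which encodes tissue factor, the trigger of clotting, had 9 UMIs in control and 495 in LPS, a ratio of 68.9 (36.0 to 152), and *Plaur*, the urokinase receptor, had 13 and 37 UMIs, a ratio of 3.57 (1.85 to 7.31). In cluster 5, 1 of 4 was higher (4.24% of all genes) and 1 lower (4.56%). The thrombin receptor *F2r* had 27.5 and 58.9 CPM, a ratio of 2.14, and *Thbd*, which encodes the anticoagulant thrombomodulin, had 84.0 and 24.0 CPM, a ratio of 0.285 (0.228 to 0.354). The median log2 ratio of this list was -0.38 in cluster 0 and -0.15 in macrophages, against -0.13 and -0.31 for all measured genes.

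None of the C1 and contact proteases (6 genes, of which 2 or 3 were measured in each cluster) and none of the leukocyte and lysosomal proteases (13 genes, 2 or 3 measured) passed 2-fold in any cluster. The measured ones were only *C1r* and *C1s*, with *Masp1* in cluster 3, and the cathepsins *Ctsb*, *Ctsl* and *Ctsk*. The others, such as *Elane*, *Ctsg* and the granzymes, were measured in no cluster, so nothing can be said of them. *Ctsl* in macrophages came nearest, with a ratio of 0.538 (0.510 to 0.567). The shares of all genes past 2-fold in each cluster are those given above. The median of the C1 list in cluster 0 was 0.29 on the log2 scale, against -0.13 for all genes. Of the collagen chains and folding enzymes, the partners of *Serpinh1*, 14 were measured in cluster 0. *Col1a2* had 79.2 and 39.4 CPM there, a ratio of 0.497, and *Col5a1* had 15.7 and 6.70 CPM, a ratio of 0.428, where 9.1% of all genes were lower. The other members measured in cluster 0 did not pass 2-fold. Among them *Col1a1*, *Col3a1* and *Col4a1*, the chains with the most UMIs, had ratios of 0.842, 0.710 and 0.979. The folding enzymes *P4hb* and *Ppib* had 0.981 and 0.992. Cluster 3 had the most lower members, 4 of 14 (1.69% of all genes), namely *Col1a2* (0.445), *Col5a1* (0.348), *Col5a2* (0.398) and *Col4a2* (0.424). In cluster 4, 3 of 14 were lower (4.08% of all genes), *Col1a2*, *Col5a1* and *Col5a2*, with ratios of 0.489, 0.451 and 0.368. *Col1a2* is also a fibroblast marker, at 24.8 and 12.1 CPM in cluster 4, and the part of free RNA in these collagen levels was not tested. In cluster 5, 2 of 14 were lower (4.56% of all genes), *Col5a1* (0.365) and *Col5a2* (0.488). In macrophages 1 of 14 was lower (12.3% of all genes), *Col5a1* (0.439). Cluster 1 had 2 of 14 lower (5.09% of all genes) and cluster 2 had 1 of 14 (4.28%). Cluster 7 had 1 of 12 lower (3.45%) and cluster 9 had 1 of 10 (2.81%). The only higher member in any cluster was *Plod2*, a lysyl hydroxylase of collagen, in cluster 7, where 4.7% of all genes were higher. It had 45.9 and 92.1 CPM there, a ratio of 2.01 (1.49 to 2.73). The list's median log2 ratio was -0.22 in cluster 0, -0.43 in cluster 4 and -0.49 in macrophages, against -0.13, -0.09 and -0.31 for all measured genes.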

How the data were processed

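The deposited values are raw counts of UMIs per gene and cell, without normalization, from 1 control and 1 LPS library. Per the labels and the submitters' processing notes the authors used Cell Ranger 2.2.0 and Seurat 2.3.4. The genome build and annotation are not given in the sources used here. Clusters and cell types are the authors' own, made on both libraries after canonical correlation analysis. UMIs were summed over the cells of each cluster and library and divided by all UMIs of that class. Ratios were taken where a gene had 50 UMIs or more in that class over both libraries, and 2-fold marked a difference. Intervals are exact Poisson (levels), exact conditional (ratios) and Clopper-Pearson (shares), at 95%, and cover counting error only. Where no UMI was seen, up to 3 UMIs were allowed. Shares of cells were taken after thinning to 3000 UMIs without replacement, which left out cells with fewer. No doublet caller was run. An alternative left out the top 8% of cells by UMIs, but depth differs between clusters, so it cannot exclude doublets among cells of lower depth. Genes given with values are all members with at least 50 UMIs over both libraries, and of the protease lists those past 2-fold in clusters 0, 4 or 6 (those of the other clusters were added after their values were seen). A family member and a marker are not reported here. The members and all lists were chosen with earlier results of these data known. Python 3.11.15, numpy 2.4.6, scipy 1.17.1, pandas 2.3.3 and matplotlib 3.10.9 were used. The ratios were tried on simulated counts that carried counting error only. Such counts cannot show how the intervals do where UMIs gather in few cells.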

Additional observations from a re-analysis of the deposited data

How the results depend on the processing

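No paired analysis was possible because a condition is a single library, and for the same reason none could be left out. The 71 log2 ratios were recomputed under 6 alternatives, of which leaving out the barcodes found in both libraries was added after seeing the data. Of 422 values, 394 stayed within the counting interval of the ratio, 27 moved beyond it, and 1 reversed a ratio whose interval excluded equal levels. The sign changed in 22 values with that one included, and in the others the interval of the ratio held equal levels. The reversed ratio was that of *Serpinf1* in cluster 1, which had -0.0081 after thinning in place of 0.09. The filter of 500 genes and 20% mitochondrial UMIs, the mean of the cells' own CPM and the shared barcodes moved none beyond its interval. The largest shift, 2.10, was that of *Serpinb2* in macrophages, 9.01 as the mean of the cells' own CPM in place of 6.91, which rests on 1 control UMI.

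Of 198 alternative counts of members past 2-fold, 176 stayed within 1.5 times. Thinning, which leaves fewer UMIs and so fewer measured genes, left 0 higher members in clusters 2 to 7. It gave 1 lower member in cluster 5, *Serpinb6a*. A minimum of 200 UMIs left 0 higher members in clusters 2 to 7 and 0 lower members in cluster 0. A minimum of 20 gave 2 lower members in cluster 2 and 1 in cluster 6. A threshold of 1.5-fold gave 2 higher members in clusters 0 and 4, 2 lower in cluster 0 and 1 lower each in clusters 5 and 9. Without the 8% of cells with the most UMIs, cluster 5 had 0 higher members. The share of all measured genes is not given at these settings. These counts therefore show only how the count of members moved, and they are no result about the family. Shares of cells moved with depth, in 20 of 24 recomputed shares. A single UMI stood for 0.0110 CPM in the control cells of cluster 0 and for 6.95 CPM in those of cluster 10.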

Other observations

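The 117 LPS fibroblasts of cluster 0 with 3 or more *Serpinb2* UMIs at equal depth were set beside the 6347 with none, as a description of cells chosen by that count. The 1938 genes ranked were those whose level over both sets of cells together would give at least 20 UMIs in the smaller set, a filter set after the values were seen. The highest ratio was that of *Slpi*, which encodes another protease inhibitor, secretory leukocyte protease inhibitor. It had 1370.4 CPM against 334 CPM, a ratio of 4.11 (3.74 to 4.51). *Tnfaip6*, the gene of the hyaluronan-binding protein TSG-6, followed with 795 and 335 CPM, a ratio of 2.37 (2.10 to 2.68), then *Bmp2* (2.37), the prostaglandin E synthase gene *Ptges* (2.35) and *Mt2A*. The contractile genes *Tagln*, *Myl9* and *Acta2* were among the 5 lowest, with ratios of 0.336, 0.358 and 0.424 (0.327 to 0.543), beside *Ptn* (0.331) and *Clic2* (0.339). Of the other Serpin genes only *Serpinf1* and *Serpinh1* are given here, picked by name and not by a rule. *Serpinf1* was at 265 and 172 CPM, a ratio of 1.54 (1.24 to 1.89), and *Serpinh1* at 1026 and 1052 CPM. Of the fibroblast markers, *Dcn* and *Col1a1* were likewise picked by name, with ratios of 1.58 (1.51 to 1.66) and 0.789. The fibroblast markers together summed to 11721 CPM in the 117 cells and 10658 CPM in those with none. The mesothelial markers, high in the other cluster rich in *Serpinb2*, summed to 7 UMIs in these cells, 19.9 CPM against 18.1 CPM in those with none.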
